A study of Mus musculus with 4 samples.

Results

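The probes described here are the 60-base E design of the TBP libraries and its mutated version. They were chosen by name, TBP_MUT_E60 for the mutated and TBP_E60 for the E design probes, and a pair shares its 4 varied bases, which end both names. Every combination of 4 bases occurs once in each library. These 512 probes are part of 6126 probe names on each array, and every name was printed on 10 spots. The labels do not say what the E stands for, and those of the 4 arrays name an antibody as the binding agent and no TBP protein.

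The series laid antibodies against UV damage on arrays of designed DNA probes, on irradiated and non-irradiated arrays, in an assay called UV-Bind. The groups were the anti-cyclobutane pyrimidine dimer (CPD) antibody at 1 in 400 on a UV array and on a non-UV array, and the anti-6-4 photoproduct (6-4PP) antibody at 1 in 80 on a UV array and on a non-UV array. Each group was 1 array, so no difference between arrays has a replicate check. Both antibodies were mouse antibodies, per the labels, and the probes are synthetic DNA that belongs to no genome position. For the 6-4PP antibody the array condition field and the title of each array state opposite conditions. The field was used here. By the titles, the UV and the non-UV names of these 2 arrays would be exchanged.

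UV light joins neighbouring pyrimidines on 1 strand. A CPD ties them by a cyclobutane ring, which forms readily at TT steps, and a 6-4 photoproduct ties them by a single bond that forms readily at TC steps. TBP, the TATA-binding protein, recognises the TATA box of promoters, whose alternating T and A bases it bends.

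The sequences below are shown because the results turn on them. Capitals mark the changed bases at positions 11 and 12, counted from 1 at the 5′ end, and the varied bases at positions 19 to 22. The first pair carries a TT step between purines, the next a TC step, then come the pair with the smallest adjusted p on the 6-4PP UV array, a pair bright enough to reach the intensity ceiling, a pair that holds no pyrimidine step, and 1 pair that is revisited with the spatially adjusted values.
TBP_MUT_E60_ATTA: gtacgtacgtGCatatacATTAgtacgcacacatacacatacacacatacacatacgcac
TBP_E60_ATTA: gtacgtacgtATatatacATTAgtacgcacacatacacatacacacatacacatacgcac
TBP_MUT_E60_ATCA: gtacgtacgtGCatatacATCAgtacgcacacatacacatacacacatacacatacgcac
TBP_E60_ATCA: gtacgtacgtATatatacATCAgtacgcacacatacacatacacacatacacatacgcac
TBP_MUT_E60_TTAT: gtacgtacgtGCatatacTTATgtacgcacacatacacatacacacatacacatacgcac
TBP_E60_TTAT: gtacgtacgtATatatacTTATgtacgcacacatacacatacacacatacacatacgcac
TBP_MUT_E60_TCGA: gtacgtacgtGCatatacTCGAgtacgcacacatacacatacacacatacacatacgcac
TBP_E60_TCGA: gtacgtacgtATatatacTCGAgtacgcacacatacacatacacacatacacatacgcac
TBP_MUT_E60_GTAC: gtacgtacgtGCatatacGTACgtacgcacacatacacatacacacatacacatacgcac
TBP_E60_GTAC: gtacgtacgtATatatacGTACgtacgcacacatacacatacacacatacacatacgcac
TBP_MUT_E60_GTAG: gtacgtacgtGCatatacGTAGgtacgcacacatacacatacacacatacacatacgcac
TBP_E60_GTAG: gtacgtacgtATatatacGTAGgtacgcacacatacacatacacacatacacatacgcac

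The mutated probe differs from its partner by the changes A11G and T12C, with the E design base given first. Outside the varied bases, every probe alternates purines and pyrimidines, so neither strand holds a pyrimidine step there. The base before the varied bases is C and the base after them is G, so a varied first pyrimidine or a varied last purine makes a step with its neighbour on 1 strand or the other. Counts of TT, TC, CT and CC steps were equal on both strands in every pair. The change to GC therefore neither added nor removed a place where either photoproduct can form. Of the pairs, 16 held 0 steps on both strands, 160 held 2 and 80 held 4.

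Both libraries were far brighter on the UV arrays than on the non-UV arrays of the same antibody. On the linear intensity scale, the median over mutated probes with the CPD antibody was 3444 after UV and 30 without UV, and that over E design probes was 3309 after UV and 30 without UV. With the 6-4PP antibody the mutated median was 13914.5 after UV and 54.5 without UV, and the E design median was 14759.5 after UV and 57 without UV. On the log2 scale, the median UV minus non-UV difference was 6.88 for mutated and 6.82 for E design probes with the CPD antibody, and 7.95 for mutated and 7.98 for E design probes with the 6-4PP antibody. All probes of each library were brighter on the UV array, and the dimmest probe there lay above the brightest on the non-UV array. This includes the 16 probes of each library without any pyrimidine step. With the CPD antibody their median was 2034.5 after UV and 28.5 without UV in mutated probes, and 1978 and 28 in E design probes. With the 6-4PP antibody it was 4576 and 53.75 in mutated probes, and 4309 and 53.5 in E design probes. The source of their signal was not tested. With the conditions read from the titles, the 6-4PP median differences over all probes are -7.95 and -7.98.

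Median intensity was higher with more pyrimidine steps in both libraries. On the 6-4PP UV array, the median of mutated probes was 4576 with 0 steps, 10654.5 with 2 steps and 25456 with 4 steps. For E design probes it was 4309 with 0 steps, 11314 with 2 steps and 27525.5 with 4 steps. The 16 probes with 0 steps reached at most 6077.5 among mutated and 5834.5 among E design probes, and 230 of 240 mutated probes (95.8%) and 233 of 240 E design probes (97.1%) with steps lay above that level.

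The CPD UV array separated the step counts less. Medians of mutated probes were 2034.5 with 0 steps, 3353 with 2 steps and 4568.5 with 4 steps, and those of E design probes were 1978 with 0 steps, 3109 with 2 steps and 4693 with 4 steps. Of the probes with steps, 153 of 240 mutated (63.8%) and 158 of 240 E design probes (65.8%) lay above every probe without one. The CPD UV array was uneven across its surface. The median of the area around a spot ran between 1111 and 8004, and replicate spots of 1 probe had a median SD of 0.70 in mutated and 0.68 in E design probes on the log2 scale. In the spatially adjusted intensity that the authors also deposited, this SD was 0.28 for mutated and 0.27 for E design probes. CPD UV values are therefore given in both forms for part of the results. Where only 1 form is given it is the intensity without spatial adjustment, and the adjusted level or the direction within a pair can differ.

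Intensity differed between kinds of step, in a way that depended on the antibody and was shared by both backbones. The comparison between kinds used the same flanking purines, A or G on each side, which gives 4 contexts per library. In each such probe the last varied purine and the fixed G also form a step on the opposite strand. This second step is the same within a context. The contexts were tested over spots by an exact two-sided permutation test. P-values were adjusted by Benjamini-Hochberg over 252 such tests per array, which cover 21 libraries of 4 varied bases, and called under 0.05. These tests compare spots on 1 array, not conditions.

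With the CPD antibody, TT exceeded TC in 4 of 4 contexts of the mutated library and in 4 of 4 of the E design library. Across the 21 libraries 90.5% of such contexts were called in either direction. The mutated ATTA probe had 9806.5 after UV and 47.5 without UV with the CPD antibody, and 21911 after UV and 54.5 without UV with the 6-4PP antibody. The E design ATTA probe had 10957.5 after UV and 46.5 without UV with the CPD antibody, and 24621 after UV and 58.5 without UV with the 6-4PP antibody. ATTA was thus far brighter with UV than without it for both antibodies, in either version. On the CPD non-UV array it still lay above the probes with 0 steps, which reached at most 36 among mutated and 31 among E design probes.

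The ATCA probe, with TC in place of TT, was brighter than ATTA with the 6-4PP antibody and dimmer with the CPD antibody. The mutated ATCA probe had 4988 after UV and 32 without UV with the CPD antibody, and 40925 after UV and 50.5 without UV with the 6-4PP antibody. The E design ATCA probe had 3969.5 after UV and 31.5 without UV with the CPD antibody, and 40775 after UV and 57 without UV with the 6-4PP antibody. With CPD after UV, ATTA minus ATCA was 1.39 ± 0.36 for mutated and 1.57 ± 0.21 for E design probes (difference of mean log2 ± SE, n = 10 spots each).

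For the 6-4PP antibody, TC was the brightest kind of step after A. TC exceeded CC in 4 of 4 contexts of the mutated library and 4 of 4 of the E design library, where 95.2% of contexts over all libraries were called in either direction. ATCA minus ACCA was 1.78 ± 0.13 for mutated and 1.78 ± 0.12 for E design probes on the 6-4PP UV array (difference of mean log2 ± SE, n = 10 spots each). TT lay below TC in 3 of 4 contexts of the mutated library and 2 of 4 of the E design library, against 47.6% of all contexts called in either direction. CC lay above CT in 1 of 4 contexts of the mutated library and 2 of 4 of the E design library, against 31% of all contexts. In the spatially adjusted intensity this was 0 of 4 contexts of the mutated library and 2 of 4 of the E design library. In these comparisons 0 contexts of either library were called the other way.

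The lower ranks of the CPD antibody depended on the form of the values. TC exceeded CC in 1 of 4 contexts of the mutated library and in 1 of 4 of the E design library, against 35.7% of all contexts called in either direction. CC lay below CT in 2 of 4 contexts of the mutated library and 1 of 4 of the E design library, against 23.8% of all contexts. In the spatially adjusted intensity, an alternative chosen after seeing the data, both comparisons were called in 4 of 4 contexts of each library.

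The base before the step went with large differences on the 6-4PP UV array. This comparison was chosen after its values were seen and has no test. With A rather than G at the first varied position, the mutated probes were brighter in 8 of 8 contexts, by a median of 0.74 on the log2 scale, and the E design probes in 8 of 8, by 0.92. The largest ratio was at TC before A, where mutated ATCA had 40925 and mutated GTCA 11283.5, a ratio of 3.63. In the E design the same probes had 40775 and 11383, a ratio of 3.58. On the CPD UV array the A probes were brighter in 6 of 8 contexts of the mutated library and 7 of 8 of the E design library, with medians of 0.47 for mutated and 0.48 for E design probes. By spatially adjusted intensity the medians were 0.13 for mutated probes, with 6 of 8 brighter, and 0.44 for E design probes, with 8 of 8 brighter.

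A step on the opposite strand gave a level of the same order. The complements of the 4 combinations with a central step between A bases carry the central step on the opposite strand, TT in TAAT, TC in TGAT, CT in TAGT and a CC step in TGGT. They also hold a step of C with the first varied base. After UV with the 6-4PP antibody, TGAT had 29491.5 in the mutated and 33188 in the E design version, and TAAT had 19120 in the mutated and 20032 in the E design version. TGGT had 9664 in the mutated and 11239.5 in the E design version, and TAGT had 8228 in the mutated and 9178 in the E design version. With the CPD antibody after UV, TAAT was the brightest of these, with 6648.5 in the mutated and 6583 in the E design version, and TGGT the dimmest, with 2526 in the mutated and 3127 in the E design version.

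Varied bases with 2 pyrimidines before 2 purines gave the brightest of the classes compared with the 6-4PP antibody. Such probes hold 4 steps, 2 on each strand, because the neighbouring C and G extend both runs. Their median on the 6-4PP UV array was 48582 in mutated and 60334 in E design probes, which was 10.6 times the median of probes with 0 steps in the mutated library and 14.0 times in the E design library. By spatially adjusted intensity these ratios were 10.9 and 12.3. Probes of this class reached the intensity ceiling of 65535 in both libraries, which limits the ratios. The reversed order, 2 purines before 2 pyrimidines, gave 9077 in mutated and 9041 in E design probes. Those probes hold 2 steps, so the 2 classes differ in step count as well as in order. With CPD after UV the first class had 4995.5 in mutated and 5496 in E design probes.

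The ceiling of the scale at 65535 was reached on the 6-4PP UV array by the medians of 8 mutated and 8 E design probes, and these shared the same 8 sets of varied bases. They were the TCAA probe with TCAG beside it, TCGA followed by TCGG, the TTAA probe with TTGA beside it, the CCGA probe, and the GATC one. Of these, 7 hold a TC step on 1 of the strands or both, and TTAA holds none. Among all combinations of varied bases, 92 hold a TC step on either strand, so most combinations with this step stayed below the ceiling. For these 8 pairs the medians give only a lower bound. In the TCGA pair printed above, all 10 mutated spots stood at the ceiling, and the E design spots ran between 44365 and 65535. TCGA had 4990.5 in the mutated and 6619.5 in the E design version on the CPD UV array, 28 in the mutated and 30 in the E design version without UV, and 53 in the mutated and 55 in the E design version with 6-4PP without UV. Its 6-4PP signal was thus at the top of the library and its CPD signal was not.

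TTTT was the brightest probe of both libraries on the CPD UV array, with 13279.5 in the mutated and 16199.5 in the E design version. Its 6-4PP UV values, 22428 in the mutated and 23369 in the E design version, were below those of ATCA. The dimmest medians on the CPD UV array were AGTG in the mutated library, at 993.5, and CGCC in the E design, at 914. The partner of each was at 2565.5 for the E design AGTG and 2424.5 for the mutated CGCC. Spatially adjusted, AGTG had 2278 in the mutated and 2699 in the E design version, and CGCC had 1960 in the mutated and 1877 in the E design version. The dimmest probe in that form was GGCC in both libraries, at 1600 in the mutated and 1399 in the E design version, and TTTT stayed the brightest in both.

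The 4 varied bases gave both backbones nearly the same pattern of levels. Across all combinations, log2 levels of mutated and E design probes had a Pearson correlation of 0.990 on the 6-4PP UV array and 0.856 on the CPD UV array, or 0.966 there in the spatially adjusted intensity. On the non-UV arrays it was 0.757 with the CPD antibody and 0.491 with the 6-4PP antibody. The probes of a pair share an array, the antibody and 58 of their bases, so these values are descriptions.

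The change to GC went with small median differences over pairs on every array, while single pairs on the CPD UV array differed widely. For each array, the pairs were tested together with all 2560 pairs of a site and its changed version in 10 pairs of libraries, by an exact two-sided permutation test of mean log2 intensity over spots with Benjamini-Hochberg adjustment, and called at an adjusted p under 0.05. As above, the test compares spots of 1 array. Spots are technical repeats of a sequence, and the pairs are not replicates of a condition.

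On the 6-4PP UV array, mutated probes tended to be slightly dimmer. The median mutated minus E design difference was -0.08 on the log2 scale, and 187 pairs were lower in the mutated version, 61 higher and 8 equal. Over all 2560 pairs the median was -0.01. Of the 60-base E design pairs, 0 were called higher and 6 called lower in the mutated version. Over the 2560 pairs 7.93% were called higher and 2.42% lower. The 6 lower calls are a share near that background. At an unadjusted p under 0.05, 3 pairs were higher and 36 lower, beside 309 higher and 223 lower of the 2560. limma over spots called 0 higher and 6 lower.

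The TTAT pair was called lower with the smallest adjusted p. TTAT had 22996.5 in the mutated version (spots between 16996 and 26106), against 27178 in the E design (spots between 23328 and 47969), on the 6-4PP UV array. The difference was -0.41 ± 0.12 (mean log2 ± SE, n = 10 spots each, exact permutation, adjusted p = 0.004), with overlapping spots. With the CPD antibody after UV, TTAT had 6941 in the mutated and 7705.5 in the E design version. In the spatially adjusted intensity these were 8756 and 8668, the opposite direction. Without UV the CPD values were 42 in the mutated and 39.5 in the E design version. With the 6-4PP antibody and no UV it had 59.5 in the mutated and 62 in the E design version. The pair was also called lower in the spatially adjusted intensity (exact permutation, adjusted p = 9.1e-04).

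TTTG and CCAA were called lower in both forms of the 6-4PP UV values as well. TTTG had 36358 in the mutated and 43919.5 in the E design version, a difference of -0.33 ± 0.08 (mean log2 ± SE, n = 10 spots each, exact permutation, adjusted p = 0.012). CCAA had 36357 in the mutated and 42781 in the E design version, a difference of -0.34 ± 0.10 (mean log2 ± SE, n = 10 spots each, exact permutation, adjusted p = 0.022). With CPD after UV neither was called, with 11504.5 in mutated and 12183.5 in E design TTTG, and 5490 in mutated and 5223.5 in E design CCAA.

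TTTA and TTTC were called lower only in the unadjusted form. TTTA had 30619 in the mutated and 39307.5 in the E design version, a difference of -0.41 ± 0.11 (n = 10 spots each, exact permutation, adjusted p = 0.019). TTTC had 41279 in the mutated and 49329.5 in the E design version, a difference of -0.29 ± 0.07 (n = 10 spots each, exact permutation, adjusted p = 0.019). In the spatially adjusted intensity the adjusted p (exact permutation) was 0.083 for TTTA and 0.221 for TTTC, with differences of -0.28 ± 0.10 for TTTA and -0.25 ± 0.12 for TTTC (mean log2 ± SE, n = 10 spots each), so both kept their direction. The remaining pair, TTCT, was named after its values were seen. It had 21779.5 in the mutated and 25076 in the E design version, and its call was likewise lost in the spatially adjusted intensity (exact permutation, adjusted p = 0.835).

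Of the 6 pairs called lower, 5 begin with TT, a group described here after its values were seen and without a test. Over the 16 pairs that begin with TT, the 6-4PP UV difference had a median of -0.23 on the log2 scale, with 0 pairs higher and 14 lower in the mutated version. The other two, TTAA and TTGA, stood at the ceiling in both versions. Spatially adjusted, the median was -0.20, with 2 pairs higher. Neighbouring TBP designs with the same change gave medians of -0.17 for pairs beginning with TT in the 59-base E design, -0.20 in the 60-base design without E and -0.15 in the 59-base design without E. In the 60-base design without E the fixed bases beside the varied ones differ, so these pairs are not matched for pyrimidine steps. With CPD after UV the TT group had a median of -0.13, and 0.04 in the spatially adjusted intensity, so its sign there depended on the form of the values.

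With CPD after UV, 0 pairs were called in either direction, and over all 2560 pairs 0.0781% were called higher and 0.0781% lower. The median over pairs was -0.02 (log2), with 124 pairs higher and 132 lower in the mutated version. The smallest adjusted p (exact permutation) was 0.220, and at an unadjusted p under 0.05 there were 6 higher and 5 lower, beside 127 higher and 87 lower of the 2560, while limma over spots called 0 in either direction. Single pairs ran between -1.55 at AGAT and 1.51 at CGTC. The AGAT pair had 1576.5 in the mutated and 4607.5 in the E design version, and the CGTC pair had 3657 in the mutated and 1287.5 in the E design version.

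These wide differences went with differences in the intensity around the spots, and their cause was not tested. Across all pairs, the difference of intensity and the difference of the surrounding median had a Pearson correlation of 0.841, where the neighbouring spots are shared by print layout. After spatial adjustment AGAT had 3451 in the mutated and 4058 in the E design version, and CGTC had 3243 in the mutated and 2567 in the E design version, and the extremes over all pairs were -0.60 at ATTT and 0.81 at GTTA. In that form the median difference was 0.05, with 166 pairs higher and 90 lower, and 112 pairs had the opposite sign to that without the adjustment.

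By spatially adjusted intensity, 3 pairs were called higher and 0 lower on the CPD UV array, against 1.05% higher and 0.508% lower over all 2560 pairs. The 3 higher calls are a share near that background, so the pairs below are given as single values. These pairs, GTAG, GTTC and GTCA, were named after their values were seen. GTAG, printed above, had 3250 in the mutated and 2044 in the E design version in that form, a difference of 0.61 ± 0.09 (mean log2 ± SE, n = 10 spots each, exact permutation, adjusted p = 0.014). Its unadjusted CPD UV values were 3719 in the mutated version (spots between 1340 and 4712), against 1922 in the E design (spots between 514 and 3154).

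GTTC had 5964 in the mutated and 4167 in the E design version in the spatially adjusted form, but 2836 in the mutated and 4887 in the E design version without the adjustment. GTCA had 3302 in the mutated and 2712 in the E design version in the adjusted form, and 2591.5 in the mutated and 2894.5 in the E design version without it. The direction of these 2 pairs thus depended on the adjustment, while that of GTAG did not. With 6-4PP after UV, GTAG had 7910.5 in the mutated and 6520.5 in the E design version, GTTC had 21566 in the mutated and 23392 in the E design version, and GTCA had 11283.5 in the mutated and 11383 in the E design version, with 0 of these 3 pairs called.

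Pairs that begin with G stood out by sign on the CPD UV array, as a description chosen after the values were seen. With G first, 40 of 64 pairs were higher in the mutated version by intensity and 53 of 64 by spatially adjusted intensity, with medians of 0.11 and 0.19 on the log2 scale. Those beginning with GC were higher in 14 of 16 pairs and in 16 of 16, with medians of 0.34 and 0.21. Those beginning with GT were higher in 5 of 16 pairs by intensity, with a median of -0.04, and in 14 of 16 by spatially adjusted intensity, with a median of 0.25. The GA group was higher in 10 of 16 by either form, and the GG group in 11 and 13 of 16. With A, C and T first, 29, 30 and 25 of 64 pairs were higher by intensity. Spatially adjusted, these counts were 43, 30 and 40 of 64, so a majority of pairs with A or T first was also higher in that form. With 6-4PP after UV, 27 of the 64 pairs with G first were higher and 36 lower, with a median of -0.02. There the GT, GA and GG groups were higher in 6, 5 and 4 of 16 pairs, and the GC group was higher in 12 of 16 pairs and, spatially adjusted, in 13 of 16, with medians of 0.11 and 0.08. The GC group of the neighbouring designs was higher in 12 of 16 pairs, or 14 of 16 after the adjustment, in the 59-base E design with CPD after UV. It was higher in 9 of 16, or 11 of 16, in the 60-base design without E. In the 59-base design without E it was higher in 12 of 16 by either form. With 6-4PP after UV, the GC group of these designs, in the same order, was higher in 9, 8 and 9 of 16 pairs. Spatially adjusted, these counts were 8, 8 and 10 of 16. In the 60-base design without E, the varied bases lie beside other fixed bases.

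The change of bases also altered how far a probe reads the same on both strands. The longest self-complementary stretch of the E design was 10 bases in 192 probes, 12 in 48, 14 in 12, 16 in 3 and 26 in 1, the GTAC probe printed above. In the GTAC probe the stretch ran over positions 1 to 26, and in its mutated partner it was 10 bases. The GTAC pair had 2193.5 in the mutated and 2263 in the E design version with CPD after UV, and 27.5 in the mutated and 30.5 in the E design version without UV. It had 4385 in the mutated and 4441 in the E design version with 6-4PP after UV, and 59.5 in the mutated and 53 in the E design version without UV. The longest stretch therefore went with levels that differed by less than the spot SD. Over the 5 classes, the median CPD UV difference in order of length was -0.05, 0.13, -0.06, -0.04 and -0.05 by intensity, and 0.03, 0.17, 0.27, 0.25 and -0.07 by spatially adjusted intensity, so the sign of 3 classes turned with the form. All 64 E design probes with a stretch above 10 bases begin with G, so these classes and the group that begins with G cannot be told apart.

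Pairs with 0 steps show what remains without a pyrimidine step. Among the alternating combinations they are the ones that start with a purine, while TATA and CGCG each hold 2 steps, formed with the neighbouring bases at either end. With 6-4PP after UV, ATAT had 6020 in the mutated and 5834.5 in the E design version, GCGC had 4080.5 in the mutated and 3375.5 in the E design version, and ACGT had 3975.5 in the mutated and 4245.5 in the E design version. TATA had 8762 in the mutated and 9280.5 in the E design version, and CGCG had 10673 in the mutated and 11809.5 in the E design version. Over the 16 pairs with 0 steps, 10 were higher and 6 lower in the mutated version on this array, with a median of 0.07 on the log2 scale.

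The non-UV arrays had little signal to differ in. With the CPD antibody, probe medians lay between 25.5 and 48 in the mutated and between 25.5 and 46.5 in the E design library. The median over pairs was 0 (log2), with 113 pairs higher, 124 lower and 19 equal, and 0 pairs were called in either direction, against 1.91% higher and 0.391% lower over all 2560 pairs. By the exact permutation test at an unadjusted p under 0.05, 6 were higher and 11 lower, beside 191 higher and 103 lower of the 2560, and limma called 1 higher and 1 lower. TTTA with 48 and ATTA with 47.5 were the brightest of the mutated library, and ATTA with 46.5 that of the E design.

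With the 6-4PP antibody on the non-UV array, probe medians lay between 48 and 63.5 in the mutated and between 50 and 69 in the E design library. Mutated probes were lower in 181 pairs, higher in 56 and equal in 19, with a median difference of -0.05 on the log2 scale. The test called 0 pairs higher and 6 lower, against 10.2% higher and 4.49% lower over all 2560 pairs, and limma over spots called 0 higher and 13 lower. At an unadjusted p under 0.05, the exact permutation test gave 0 higher and 29 lower, beside 472 higher and 272 lower of the 2560. The smallest adjusted p was that of GCTC, with 53 in the mutated and 63.5 in the E design version, a difference of -0.29 ± 0.06 (mean log2 ± SE, n = 10 spots each, exact permutation, adjusted p = 0.003). CACT had 54.5 in the mutated and 64.5 in the E design version, and CGCA had 48 in the mutated and 57 in the E design version. On the 6-4PP UV array the GCTC pair was at 37523.5 in the mutated and 36476 in the E design version, the opposite direction within the spot SD.

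The 64 pairs whose varied bases end in C were printed a second time, under the names of the 60-base TBP libraries without E. This gives a second measurement of the same sequences with other spots of the same array, used as an alternative chosen after seeing the data. On the 6-4PP UV array the median mutated minus E design difference was -0.11 under the E names and -0.08 under the other names, and 47 of 64 pairs had the same sign. The differences had a Pearson correlation of 0.42 across the 64 pairs, while the levels had one of 0.989 in the mutated and 0.993 in the E design library. On the CPD UV array 29 of 64 pairs had the same sign, or 44 of 64 in the spatially adjusted intensity. On the 6-4PP non-UV array 32 of 64 pairs had the same sign, and the differences had a Pearson correlation of 0.11. TTTC, one of the pairs called lower on the 6-4PP UV array, had a log2 difference of -0.37 there under the other names. Its values were 40946 in the mutated and 53088 in the E design version. GCTC, called lower on the 6-4PP non-UV array, went the opposite way there under the other names. It had 57.5 in the mutated and 54 in the E design version, a log2 difference of 0.09.

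The neighbouring designs tested whether the difference within a pair was particular to the 60-base E design. The 59-base E design lacks 1 base after the varied bases, and the 60-base design without E places them 1 base earlier. In the latter design they lie between A and C instead of between C and G. The same varied bases can therefore hold other pyrimidine steps there, and comparisons with that design are not matched for steps. For each array and each neighbour, limma compared the difference of differences over spots for every combination with Benjamini-Hochberg adjustment. Against the 59-base E design, 0 combinations (0%) were called on the CPD UV, 6-4PP UV and 6-4PP non-UV arrays, and 2 (0.781%) on the CPD non-UV array. Against the 60-base design without E, 0 combinations (0%) were called on every array. At an unadjusted p under 0.05, limma gave 12 against the 59-base and 17 against the 60-base neighbour for CPD after UV, and 15 and 21 in that order without UV. For 6-4PP it gave 15 and 11 after UV, and 11 and 21 without UV. By spatially adjusted intensity on the CPD UV array, limma called GTAG and GTTC against the 60-base design without E, with a difference of differences of 0.77 ± 0.17 for GTAG (log2 ± SE, limma, adjusted p = 0.003) and 0.73 ± 0.18 for GTTC (log2 ± SE, limma, adjusted p = 0.007).

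The same change within these neighbours gave 6-4PP UV medians close to that of the 60-base E design. The median mutated minus unchanged difference was -0.09 in the 59-base E design, with 1 pair called higher and 11 lower. It was -0.11 in the 60-base design without E, with 1 called higher and 19 lower, and -0.09 in the 59-base design without E, with 2 called higher and 10 lower. On the CPD UV array the medians were -0.04 in the 59-base E design, -0.02 in the 60-base design without E and -0.02 in the 59-base design without E.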

How the data were processed

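The authors deposited 1 table per array with fluorescence intensity of the Alexa label per spot on a linear scale, per the file headers, as an unflagged column, the surrounding median and a spatially adjusted column. The sources used here do not name the scanner, the UV dose or the software. The Cy3 column held 1 at every spot, so the amount of DNA was not corrected for. Each array had 62976 spots, of which 61260 belonged to the libraries. Flagged spots numbered 11 in mutated and 18 in E design probes on the 6-4PP UV array and 55 and 63 on the 6-4PP non-UV array, and were left out, as were no spots on the CPD arrays. A probe's value is the median of its unflagged spots.

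Pairs were compared on log2 intensity with Python 3.11.15, NumPy 2.4.6, pandas 2.3.3 and SciPy 1.17.1 by enumerating all splits of 10 against 10 spots, where the smallest possible p is 1.083e-05, and with limma 3.58.1 in R 4.3.3. Both were tested on simulated data. Pairs were named by a rule. It took up to 5 called in each direction with the largest difference on each UV array, and up to 3 on each non-UV array. It also took a fixed list of combinations with a central step and of alternating combinations, and the brightest and dimmest probes. The alternatives were the spatially adjusted intensity, limma over spots, means of log2 spots, each spot left out in turn, and the conditions by title. The members and lists were chosen with earlier results of these data known. The 10 spots of a probe set the precision, and p-values measure only the spread between spots.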

Additional observations from a re-analysis of the deposited data

Results flagged for a closer look

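On the CPD non-UV array, the mutated minus E design difference of the 60-base probes departed from that of the 59-base E design in 2 combinations, by limma's test of the difference of differences over spots. For GCGT this was 0.73 ± 0.15 (log2 ± SE, limma, adjusted p = 6.0e-04), from 36 in the mutated and 27 in the E design version at 60 bases, and 30 in the mutated and 34.5 in the E design version at 59 bases. For TGTT it was 0.65 ± 0.17 (log2 ± SE, limma, adjusted p = 0.014), from 43.5 in the mutated and 36.5 in the E design version at 60 bases, and 44 in the mutated and 56.5 in the E design version at 59 bases. All of these levels belong to the array without UV. In the spatially adjusted intensity, 2 other combinations, ATAA and TATT, were called in place of these.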

How the results depend on the processing

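Without any 1 of the 10 spots, the median difference lay between -0.03 and 0.02 on the CPD UV array and between -0.09 and -0.07 on the 6-4PP UV array. Pairs called lower ran between 5 and 7 on the 6-4PP UV array and between 2 and 7 on the 6-4PP non-UV array, and those called higher there between 0 and 1. On the CPD non-UV array pairs called higher lay between 0 and 1 and pairs called lower between 0 and 1. limma over spots called 13 pairs lower on the 6-4PP non-UV array, and 1 higher and 1 lower on the CPD non-UV array. The spatially adjusted intensity called 3 pairs higher on the CPD UV array and 1 lower on the CPD non-UV array. It called 8 pairs lower for 6-4PP after UV, of which TTAT, TTTG and CCAA were also called without it. For the difference of differences it called 1 against the 59-base E design and 2 against the 60-base design without E on the CPD UV array, and 5 against the 60-base design without E on the CPD non-UV array. The spatially adjusted intensity called TC above CC in 8 and CC below CT in 8 of the 8 CPD UV contexts of both libraries. On the 6-4PP UV array it called CC above CT in 0 of 4 contexts of the mutated library and 2 of 4 of the E design library. The 6-4PP UV minus non-UV medians became -7.95 and -7.98 by the titles. The cause of these changes was not tested. Spatial adjustment turned the sign in 112 pairs with CPD after UV, where the median became 0.05 against -0.02, in 72 with CPD without UV, in 47 with 6-4PP after UV and in 24 with 6-4PP without UV. With the mean of log2 spots the CGCC difference on the CPD UV array was 0.64, against 1.41 from medians, and in the spatially adjusted intensity ATCA and ACGT were called lower on the 6-4PP non-UV array. No paired analysis was possible because each group was 1 array. The uneven CPD UV surface and the 6-4PP ceiling limit what could be detected: 88 mutated and 102 E design spots stood at the ceiling.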

Other observations

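The 2 antibodies ranked the probes of a library differently. Across all probes, the log2 levels on the CPD UV array and the 6-4PP UV array had a Pearson correlation of 0.56 in the mutated and 0.58 in the E design library, where both arrays share the print layout and the base composition of the probes. Pair differences of the 2 UV arrays had a correlation of 0.35, and 0.16 in the spatially adjusted intensity. GTGT, named after its values were seen, had the largest positive 6-4PP UV difference, at 0.60 on the log2 scale, with 5538.5 in the mutated and 3648 in the E design version, and it was not called (exact permutation, adjusted p = 0.169). TTAG had the largest negative one, at -0.58, with 43493.5 in the mutated and 64912 in the E design version, where E design spots reached the ceiling, and it was not called either (exact permutation, adjusted p = 0.076).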
